A study of Rattus norvegicus with 18 samples.

Results

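The enzymes and transporters of glycogen turnover and glycolysis were followed at the transcript level in rat muscle that the study names soleus, a postural calf muscle. The set holds 31 genes, from glycogen phosphorylase (Pygm) through the steps of glycolysis to lactate dehydrogenase and the lactate transporter Slc16a1. A gene was taken where an array probe set lists its symbol and no other, and the probe set with the highest mean over the 18 arrays stands for it. Of the 31 genes, 30 had such a probe set and 29 were tested, among 14217 named genes and 31042 probe sets. The probe sets that list Gapdh alone are all control probe sets of the array, so Gapdh is described separately and was not among the tested members. Pkm had only a probe set that lists another gene beside it, so no value is given for Pkm; such a shared probe set exists for Gapdh too, listed with Gapdhl10, and stands for neither gene here.

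The study induced chronic kidney disease in male rats with a 5/6 nephrectomy (SNX), gave control rats a sham operation (sham), and 8 weeks later tied and removed a part of the right femoral artery. Soleus was taken 24 hours after that, and per the series' design text all 4 groups, sham left, sham right, SNX left and SNX right, come from animals with the right artery ligated, so the left limb is the unligated limb of the same animal. There are 4 sham rats (numbers 11, 13, 15 and 17) and 5 SNX rats (12, 18, 20, 37 and 49), each with both limbs on 1 array each, and the labels name no further agent. The source labels of the samples instead call both limbs of the sham rats nonischemic and both limbs of the SNX rats ischemic, which differs from the design text. The groups are therefore named by operation and side. The labels give no strain and no age, and the unligated limb of a ligated animal is not the limb of an unoperated one.

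Glycogen is built from UDP-glucose by glycogen synthase on a glycogenin primer, with branches set by the branching enzyme, and is broken down by glycogen phosphorylase, which phosphorylase kinase switches on. Glycolysis turns hexose phosphates into trioses and then pyruvate, with phosphofructokinase as its main control point, and in muscle without oxygen pyruvate is reduced to lactate. Most steps have a form typical of skeletal muscle and a form found in many other tissues, and fast fibres are richer in the glycolytic machinery than slow fibres, which carry more of the heart-type lactate dehydrogenase and more lactate uptake.

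Levels are the log2 values of the deposited table, and a change of 1 on this scale is a doubling. Values of single arrays are listed in the order of rats 11, 13, 15 and 17 for sham and 12, 18, 20, 37 and 49 for SNX. A difference is given with its standard error (SE), and a p-value is adjusted over 31042 probe sets by the Benjamini-Hochberg method in limma, with 0.05 as the threshold. Since the limbs compared belong to the same rat, a fit that keeps the rat as a random block is quoted wherever it changes a call.

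The promoters of 4 members are shown because the results turn on 3 of them, Ugp2, Pfkp and Pgam1, and because Pgam2 is the muscle form of the same enzyme as Pgam1. Each line gives 250 bases before to 50 bases after the annotated start, 5′ to 3′ on the gene's strand, from RefSeq with build GRCr8. Capitals mark ACGTG or GCGTG, the letters at the core of the hypoxia response element, and CAGCTG, an E-box of muscle genes. All were searched on both strands, so their reverse complements are in capitals too.
Ugp2: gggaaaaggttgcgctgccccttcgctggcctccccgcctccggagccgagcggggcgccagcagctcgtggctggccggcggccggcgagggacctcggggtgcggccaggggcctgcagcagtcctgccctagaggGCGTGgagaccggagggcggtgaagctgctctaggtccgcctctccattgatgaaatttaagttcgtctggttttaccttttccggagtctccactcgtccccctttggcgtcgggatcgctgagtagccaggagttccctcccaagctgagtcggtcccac
Pfkp: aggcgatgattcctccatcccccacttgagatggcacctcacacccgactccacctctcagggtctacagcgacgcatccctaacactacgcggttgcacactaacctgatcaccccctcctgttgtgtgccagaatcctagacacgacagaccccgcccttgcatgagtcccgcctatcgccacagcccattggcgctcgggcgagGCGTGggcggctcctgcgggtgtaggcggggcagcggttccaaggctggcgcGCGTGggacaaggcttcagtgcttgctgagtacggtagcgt
Pgam1: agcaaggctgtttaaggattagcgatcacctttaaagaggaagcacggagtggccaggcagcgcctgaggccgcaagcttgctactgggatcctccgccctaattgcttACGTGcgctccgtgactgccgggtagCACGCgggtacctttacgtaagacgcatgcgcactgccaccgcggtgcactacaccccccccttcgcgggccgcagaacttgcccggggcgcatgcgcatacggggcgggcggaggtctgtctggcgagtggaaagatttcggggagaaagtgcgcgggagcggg
Pgam2: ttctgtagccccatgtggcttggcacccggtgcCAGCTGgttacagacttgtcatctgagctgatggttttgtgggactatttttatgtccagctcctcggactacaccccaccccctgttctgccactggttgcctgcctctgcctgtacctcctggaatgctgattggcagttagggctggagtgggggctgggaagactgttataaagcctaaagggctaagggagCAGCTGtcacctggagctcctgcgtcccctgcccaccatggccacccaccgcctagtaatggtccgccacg
The windows lie at chr14:99697953-99698252 on the minus strand (Ugp2), chr17:68639563-68639862 on the plus strand (Pfkp), chr1:250672902-250673201 on the plus strand (Pgam1) and chr14:84897825-84898124 on the minus strand (Pgam2). Ugp2 has 1 match to the hypoxia letters, Pfkp 2 and Pgam1 2, while Pgam2 has none and instead holds CAGCTG at 2 places. Of the 31 members, 28 had a window in the table, and ACGTG or GCGTG was found in 19 of these 28 (67.9%), against 41.6% of all 33469 windows of the same length. CAGCTG was found in 5 of 28 (17.9%) against 15.1% of all windows. The windows of the members were reduced to 1 per gene and the 33469 were not, and the sets were not matched for base content or expression. Overlapping matches, such as ACGTG with its own reverse complement in CACGTG, were each found. A match of letters is a description and not a binding site.

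Across the arrays the medians of all probe sets lay between 3.22 and 3.37, and the values ranged from 0.80 to 15.9. Mean correlation with all other arrays was lowest for the right limbs of sham rat 17 (0.978) and SNX rat 49 (0.980), where the highest was 0.992. Both also had the highest means of a list of macrophage genes (13 of 14 measured), 8.89 and 8.21, against 4.91 to 7.05 on the other arrays; among its genes Itgam and Cd68 were dim (means of 2.65 and 3.52 over 18 arrays) and Lyz2 was bright (11.48). Markers of slow fibres (10 of 11 measured, Myh7 at a mean of 14.88) and of fast fibres (12 of 13, Myh4 at 15.34) were bright, and their list means ranged from 10.49 to 14.51 and from 14.48 to 14.95. Actn3 (15.10) and Pvalb (14.10) of the fast list were bright too. On every array the fast fibre mean was the higher, though levels of unlike probe sets do not give amounts. Soleus is the name the study gives, and how much RNA came from fast fibres or from another muscle was not tested. The slow fibre mean was lowest on the right array of SNX rat 20 (10.49) and the left array of sham rat 17 (11.37). In such whole-muscle RNA, fewer cells of a type and less RNA per cell cannot be told apart.

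Few members differed between the limbs 24 hours after ligation by the test. Of the 29 members tested, 2 rose in the right limb when both kinds of rat were combined, Ugp2 by 0.32 ± 0.05 and Pfkp by 1.06 ± 0.24 on the log2 scale, and none fell; with the rat as a block Pgam1 (0.68 ± 0.20) rose as well. These 2 of 29 stand against 2.55% of all probe sets called (1.55% higher on the right), and the 3 of 29 with the block against 9.05% (4.56% higher on the right). Of the 29 members 27 lay above the median of all probe set means (3.30), and all of these calls were among the 27. Among the 15521 probe sets above that median 783 were called without the block and 2688 with it. The members' median difference was -0.07, with 11 members above 0 and 18 below, against a median of -0.02 over all probe sets, of which 10579 were above 0 and 20463 below. Among the 15521 brighter probe sets 6770 were above 0 and 8751 below, and among the 27 brighter members 9 and 18. At an unadjusted p under 0.05, 5 members were higher and 1 was lower, 6 of 29 against 18.9% of all probe sets, and with the block 9 of 29 were past it, against 27.6%. Of the 15521 brighter probe sets 5137 were past it without the block and 6687 with it. Of the 791 probe sets called without the block 783 were brighter ones, and the shares of all probe sets given further on include the dim ones.

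**Figure D1:**
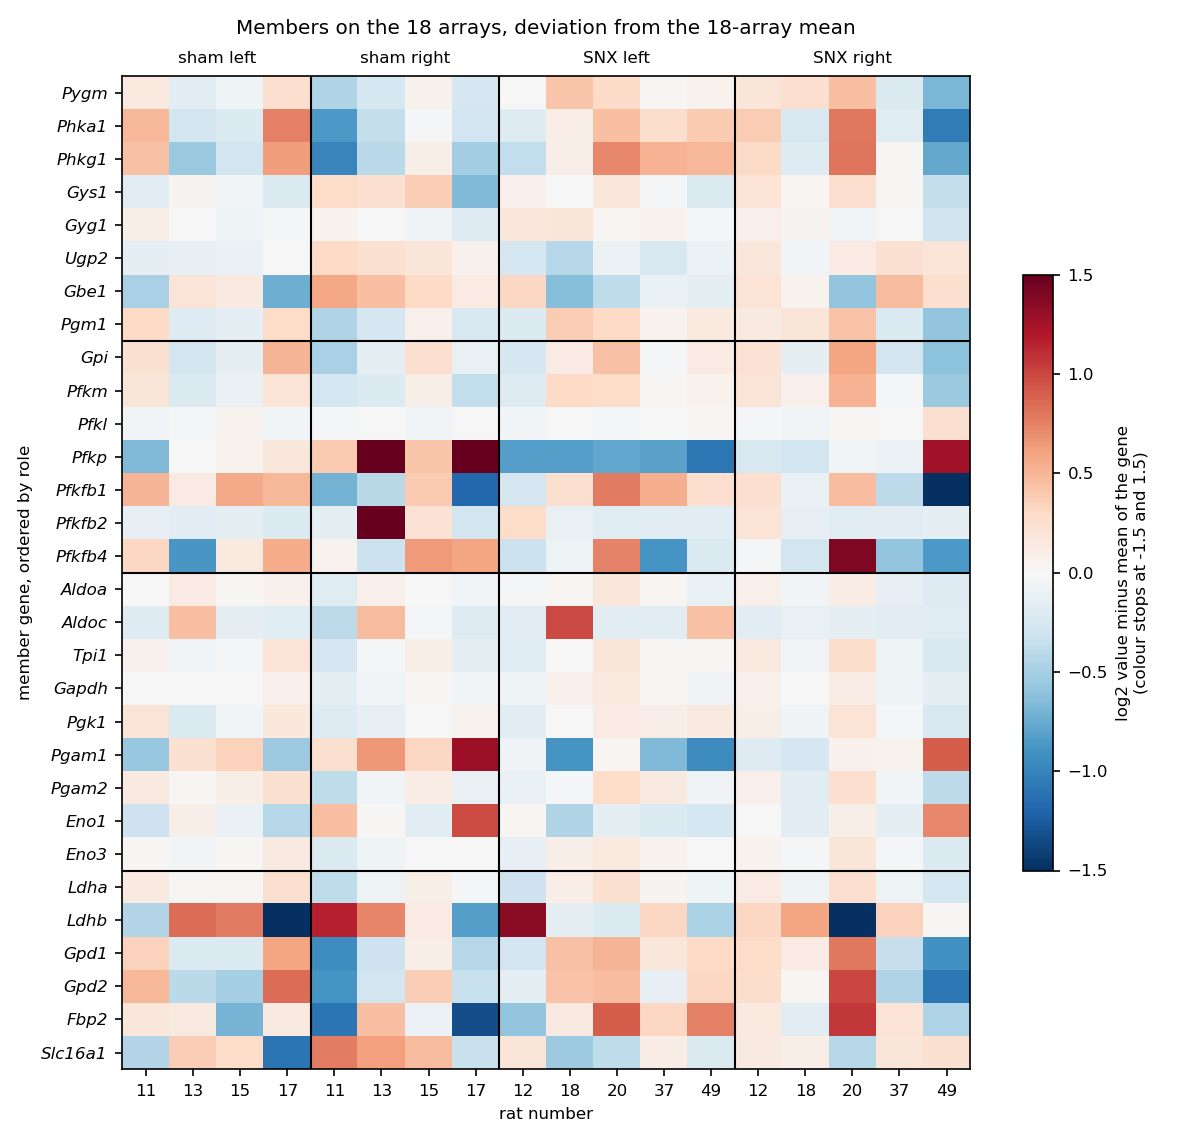
Each row is a member gene and each column an array, grouped by operation and side; colour gives the log2 value minus the gene's mean over the 18 arrays, colour stops at -1.5 and 1.5, and genes are ordered by their role. Pfkp had its highest value, 7.92, on the right array of sham rat 17, and Ldhb had its lowest value, 10.77, on the right array of SNX rat 20.

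Within sham rats none of the 29 members passed the threshold in limma's unblocked fit, where 0.148% of all probe sets did, and 6 had an unadjusted p under 0.05 (5 higher, 1 lower), against 12.3% of all probe sets, or 7 with the block, against 19.5%. With the rat as a block 1 member, Ugp2, passed, against 1.8% of all probe sets. Within SNX rats none passed without the block, against 0.0451% of all probe sets, 3 had an unadjusted p under 0.05, all higher, against 7.92%, or 4 with the block, against 12.5%, and Ugp2 passed with the block, against 0.319%. The right and left arrays did not overlap for Ugp2 and Pfkp in sham rats and for the same genes in SNX rats, 2 of 29 members in each case, against 8.64% and 1.95% of all probe sets.

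Glycogen synthesis and breakdown were measured through 8 members, and UDP-glucose pyrophosphorylase was the member that rose. Over both kinds of rat 1 of 8 was called with and without the block, against 9.05% and 2.55% of all probe sets, 3 were above 0 and 5 below, and their median difference was -0.15. Ugp2 makes UDP-glucose, the donor for glycogen synthase. Its levels were 14.15, 14.16, 14.18 and 14.28 in the left and 14.58, 14.51, 14.46 and 14.34 in the right limbs of sham rats. In SNX rats they were 14.02, 13.86, 14.19, 14.04 and 14.20 in the left and 14.44, 14.23, 14.40, 14.51 and 14.47 in the right limbs. Every right limb was above the left limb of its own rat, in 9 of 9 rats, and within each kind of rat the lowest right array lay above the highest left array. Right minus left was 0.28 ± 0.08 in sham rats (limma adjusted p = 0.144, with the block 0.0391) and 0.35 ± 0.07 in SNX rats (adjusted p = 0.107, with the block 0.0234). Combined over both kinds it was 0.32 ± 0.05 (limma adjusted p = 0.0072, with the block 0.0013), a 1.24-fold difference with a 95% interval of 0.21 to 0.42 on the log2 scale. The combined call passed with each rat left out in turn, at 0.29 to 0.35 and adjusted p of at most 0.0428, and without the 2 arrays that stood apart it was 0.33 ± 0.05 (limma adjusted p = 0.0089). With 1 rat left out, the blocked call within sham rats remained without SNX rat 18, 20 or 49 and was lost without any other rat, at differences of 0.23 to 0.35 and adjusted p of up to 0.222; that within SNX rats remained without SNX rat 18 or 20 or sham rat 11, 15 or 17, at 0.32 to 0.39 and up to 0.146.

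The slope of Ugp2 within the groups was -0.003 per log2 unit of the slow fibre mean and -0.02 per unit of the macrophage mean. With the macrophage mean as a covariate, an alternative added after the data were seen, its difference was 0.34 ± 0.07 and the adjusted p in limma was 0.144. Slopes on the other lists were not fitted. The part of cell content in the limb difference of Ugp2 was not tested beyond fits with these means.

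Gbe1, the branching enzyme, was higher in the right limb of 7 of 9 rats without passing the test. Its levels were 12.51, 13.20, 13.14 and 12.27 on the sham left and 13.58, 13.46, 13.30 and 13.12 on the sham right arrays. On the SNX left arrays they were 13.32, 12.37, 12.63, 12.90 and 12.86, and on the SNX right arrays 13.21, 13.06, 12.42, 13.47 and 13.24. The groups overlapped in both kinds of rat. Right minus left was 0.58 ± 0.25 in sham rats, 0.27 ± 0.22 in SNX rats and 0.43 ± 0.17 combined (limma adjusted p = 0.185, with the block 0.0708). Gbe1 had a slope of 0.308 log2 units per unit of the slow fibre mean within the groups, and the standard deviation of its residuals went from 0.368 to 0.150 with that mean in the fit. In that fit its difference was 0.41 ± 0.07 and passed the threshold (limma adjusted p = 0.0079).

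The subunits of phosphorylase kinase, the enzyme that switches on glycogen phosphorylase, had combined differences below 0 without passing the test, and the rats were divided in sign. Phkg1, the catalytic subunit of muscle, read 9.67, 8.67, 8.94 and 9.86 on the sham left arrays and 8.24, 8.82, 9.31 and 8.70 on the sham right arrays. In SNX rats it read 8.85, 9.33, 9.94, 9.75 and 9.72 on the left and 9.51, 9.03, 10.03, 9.25 and 8.45 on the right. The right limb was lower in 5 of 9 rats and the groups overlapped, with a combined difference of -0.39 ± 0.23 (limma adjusted p = 0.371). Phka1, the regulatory alpha subunit of muscle, read 12.29, 11.51, 11.58 and 12.54 on the sham left and 10.93, 11.44, 11.77 and 11.50 on the sham right arrays. On the SNX left arrays Phka1 read 11.59, 11.89, 12.25, 12.05 and 12.18, and on the SNX right arrays 12.17, 11.55, 12.58, 11.61 and 10.74. Its right value was the lower one in 6 of 9 rats, with a combined difference of -0.42 ± 0.22 (limma adjusted p = 0.326), and again no group lay apart. For both subunits rat 11 and rat 17 of the sham group had higher left values than rats 13 and 15, and the slow fibre mean of those 4 left arrays was 12.70 and 11.37 for rats 11 and 17 and 14.24 and 13.90 for rats 13 and 15. Within the groups the slope on the slow fibre mean was -0.357 for Phkg1 and -0.342 for Phka1; the part of this list in the limb differences was not tested beyond the fit with it as a covariate, where Phkg1 was at -0.37 ± 0.16 (limma adjusted p = 0.200).

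The other glycogen members did not pass in any comparison. Pygm, glycogen phosphorylase of muscle, lay between 13.40 and 14.54 on all 18 arrays, with a combined difference of -0.21 ± 0.13, and Pgm1, which links glucose 1-phosphate to glycolysis, between 12.88 and 13.89 (-0.21 ± 0.13). Gyg1, the glycogenin primer, was lower in the right limb of 8 of 9 rats with a combined difference of -0.09 ± 0.05 (limma adjusted p = 0.348). Gys1, glycogen synthase of muscle, was higher on the right in 7 of 9 rats, the 2 exceptions being sham rat 17 (10.80 on the right) and SNX rat 49 (11.11 on the right). Its combined difference was 0.09 ± 0.13 over all arrays and 0.26 ± 0.06 without the right arrays of those 2 rats, where it passed the threshold (limma adjusted p = 0.0416). Since the arrays left out are the same 2 in which Gys1 was lower on the right, leaving them out raises its difference. The left arrays of both rats stayed in that fit. The slope of Gys1 on the macrophage mean was -0.271 within the groups.

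**Figure D2:**
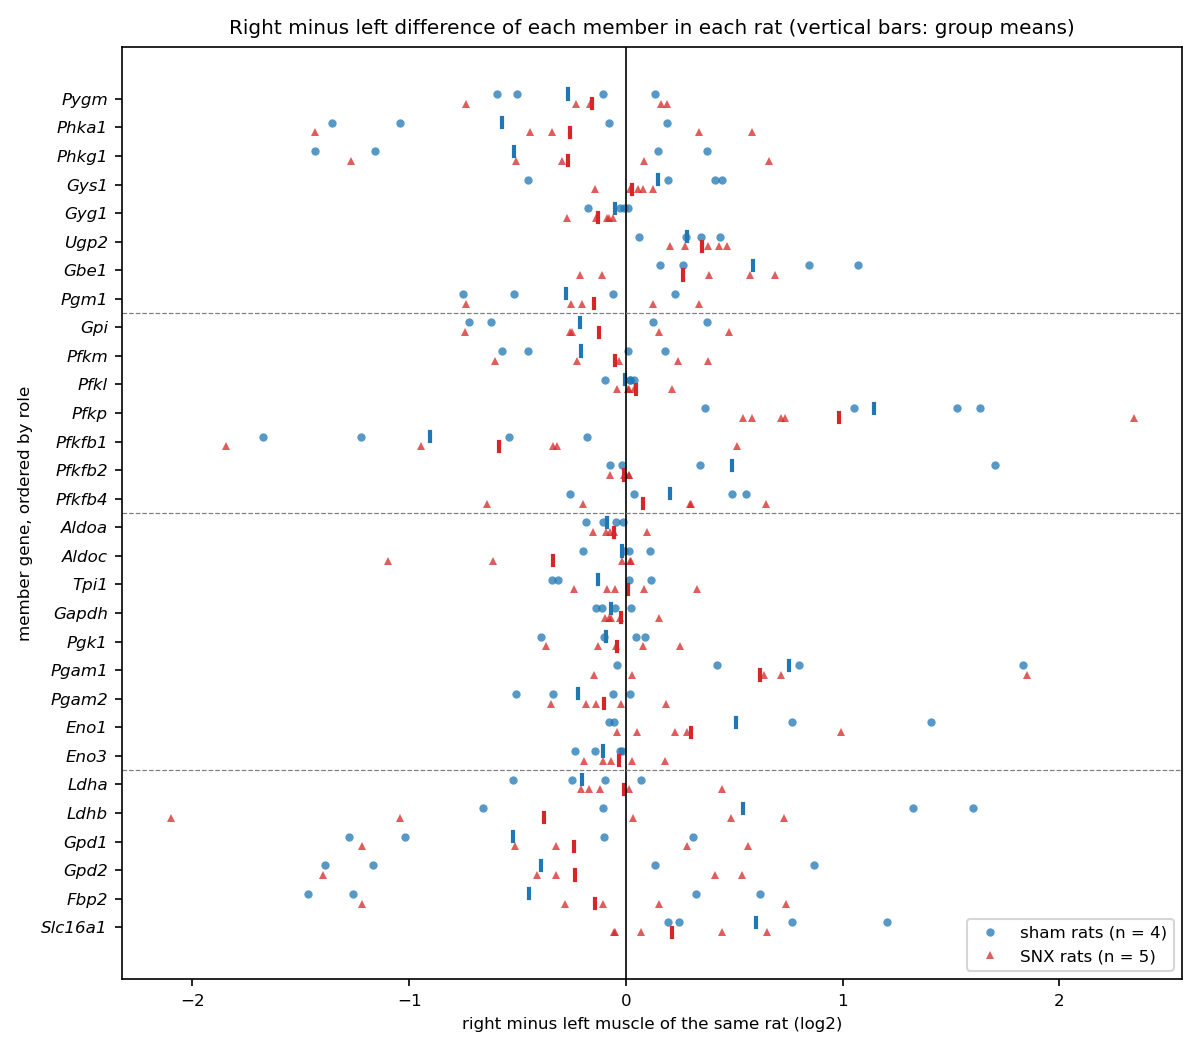
Right minus left difference (log2) of every member with values, Gapdh included, with a point for each rat (circles for 4 sham rats, triangles for 5 SNX rats) and a vertical bar at the mean of each kind of rat; members are ordered by role. All 9 points of Ugp2 lie above 0, from 0.06 to 0.47, and all 9 of Pfkp, from 0.37 to 2.34, while those of Ldhb run from -2.10 to 1.60.

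Among the members that act on hexose phosphates, the platelet form of phosphofructokinase rose and the muscle form did not pass the test. Over both kinds of rat 1 of 7 such members was called with and without the block, against 9.05% and 2.55% of all probe sets, 4 of 7 were above 0 and their median difference was 0.02. Pfkp is one of 3 genes for the phosphofructokinase subunit, and its levels on the sham left arrays were 5.56, 6.23, 6.27 and 6.39 and on the sham right arrays 6.61, 7.86, 6.64 and 7.92. In SNX rats it was at 5.40, 5.40, 5.45, 5.42 and 5.14 on the left and 5.99, 5.94, 6.18, 6.14 and 7.48 on the right. All 9 right limbs were above the left limb of the same rat, and right and left arrays did not overlap in either kind of rat. The highest values were those of sham rats 13 and 17 and SNX rat 49, all right limbs. Right minus left was 1.14 ± 0.35 in sham rats (limma adjusted p = 0.202, with the block 0.0693) and 0.98 ± 0.32 in SNX rats (adjusted p = 0.424, with the block 0.151), and neither passed alone. Combined it was 1.06 ± 0.24 (limma adjusted p = 0.0320, with the block 0.0078), a 2.09-fold difference with a 95% interval of 0.56 to 1.57.

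The combined call for Pfkp was near the threshold in the unblocked fit. It was lost without sham rat 11 (limma adjusted p = 0.0676), sham rat 13 (0.0846), sham rat 17 (0.0936), SNX rat 12 (0.0507), SNX rat 18 (0.0579) or SNX rat 37 (0.0886), while the difference stayed between 0.89 and 1.19; with the block it passed without any 1 of the 9 rats, at an adjusted p of at most 0.0292. Without the right arrays of sham rat 17 and SNX rat 49 it was 0.81 ± 0.17 (limma adjusted p = 0.0337). Pfkp moved with the macrophage list, which was higher on the right than on the left in 8 of 9 rats: its slope within the groups was 0.499 log2 units per unit of that mean, and the residual standard deviation went from 0.517 to 0.328. With that mean as a covariate the difference was 0.43 ± 0.20 (limma adjusted p = 0.819). Against the slow fibre mean its slope was 0.004.

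Pfkm, the muscle subunit, lay between 13.61 and 14.68 on all arrays, with a combined difference of -0.13 ± 0.12 (limma adjusted p = 0.560). A dimmer Pfkm probe set, at a mean of 11.60, gave -0.28 ± 0.15 combined (limma adjusted p = 0.318), lower on the right in 7 of 9 rats. It gave -0.55 ± 0.22 in sham rats (limma adjusted p = 0.340) and -0.02 ± 0.20 in SNX rats. The dimmest, at a mean of 6.63, gave -0.03 ± 0.12 combined. Within an array, the log2 difference of Pfkm minus Pfkp was lower on the right than on the left in 9 of 9 rats, with a median change of -1.56 in sham and -0.75 in SNX rats; since Pfkp is part of that ratio, it shows unequal change and nothing further. Pfkl, the liver subunit, was dim and lay between 2.72 and 2.996, below the median of all probe set means (3.30).

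**Figure D3:**
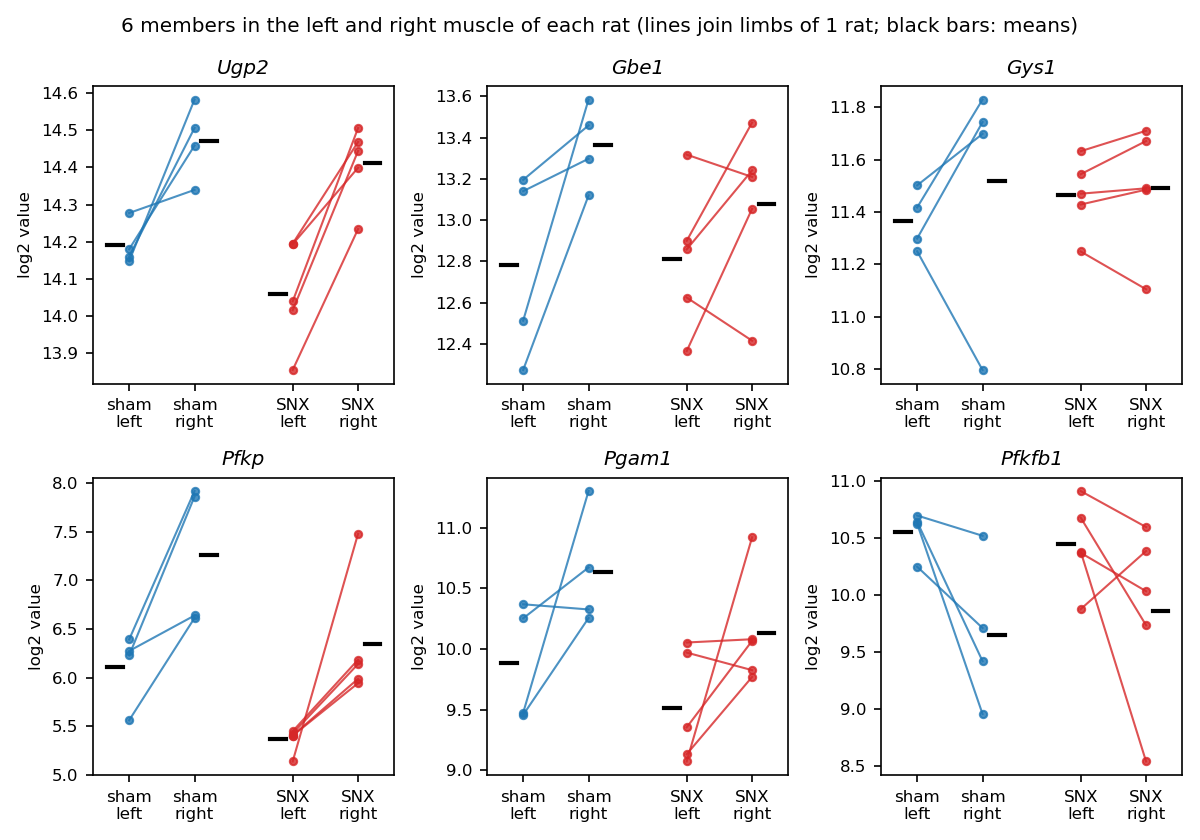
Levels (log2) of 6 members, Ugp2, Gbe1, Gys1, Pfkp, Pgam1 and Pfkfb1, in the left and right limb, with a line joining the limbs of each rat and black bars at the group means. All 9 lines of Ugp2 and of Pfkp go up from left to right, 7 of 9 do for Pgam1, Gbe1 and Gys1, and 8 of 9 go down for Pfkfb1.

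The members that make and remove fructose 2,6-bisphosphate, the activator of phosphofructokinase, did not pass. Pfkfb1, whose gene gives the liver and muscle forms of this enzyme, was at 10.64, 10.25, 10.70 and 10.62 on the sham left and 9.42, 9.71, 10.52 and 8.95 on the sham right arrays. On the SNX left arrays Pfkfb1 was at 9.87, 10.37, 10.91, 10.68 and 10.38, and on the SNX right arrays at 10.38, 10.03, 10.59, 9.73 and 8.54. The right limb was lower in 8 of 9 rats, SNX rat 12 being the exception, and the lowest values were those of sham rat 17 and SNX rat 49. The combined difference was -0.74 ± 0.26 (limma adjusted p = 0.139, with the block 0.0559), -0.46 ± 0.19 without those 2 right arrays (adjusted p = 0.273), and the slope on the macrophage mean was -0.495 within the groups.

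Pfkfb2, the heart form, was dim and lay below the median of all probe set means (3.30). It read 2.91, 2.88, 2.91 and 2.84 on the sham left, 2.90, 4.58, 3.25 and 2.76 on the sham right, 3.32, 2.93, 2.86, 2.89 and 2.88 on the SNX left and 3.24, 2.92, 2.88, 2.89 and 2.89 on the SNX right arrays. Only sham rat 13 on the right stood clearly higher, and in SNX rat 12 both limbs were above the rest of their groups. Pfkfb4, another form, spanned 5.93 to 8.22 with a combined difference of 0.14 ± 0.31, and Gpi, which interconverts glucose 6-phosphate and fructose 6-phosphate, spanned 12.89 to 14.09 (-0.17 ± 0.16).

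From trioses to pyruvate, the muscle forms kept within narrow ranges on all arrays, and the widely expressed forms of phosphoglycerate mutase and enolase were higher on the right in most rats. Of the 8 members tested here none was called without the block, against 2.55% of all probe sets, and 1 with it, against 9.05%; 2 were above 0 and 6 below, and their median difference was -0.07. Aldoa, the aldolase of muscle, ranged from 14.80 to 15.17 over all arrays with a combined difference of -0.07 ± 0.05. Tpi1, triose phosphate isomerase, ranged from 14.43 to 14.94 (-0.06 ± 0.07), and Pgk1, phosphoglycerate kinase, from 14.60 to 15.04 (-0.07 ± 0.07). Pgam2 and Eno3, the muscle forms of mutase and enolase, ranged from 14.39 to 15.05 and from 14.77 to 15.17, with combined differences of -0.16 ± 0.08 and -0.07 ± 0.05. None of these 5 passed in any of the 6 comparisons, and the 95% intervals of their combined differences stayed within -0.34 to 0.09. These values lie close to the top of the scale, at 15.9, where a probe set may respond less to a change in RNA, which was not tested.

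Gapdh, glyceraldehyde 3-phosphate dehydrogenase and a common reference gene, is on this array as control probe sets, and in an added fit that included them the brightest read 15.03 ± 0.04 (SD, n = 4) in sham left, 14.96 ± 0.06 (SD, n = 4) in sham right, 15.04 ± 0.09 (SD, n = 5) in SNX left and 15.01 ± 0.10 (SD, n = 5) in SNX right limbs. Its combined difference was -0.05 ± 0.04 (limma adjusted p = 0.49), with the right limb lower in 7 of 9 rats.

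Pgam1, the widely expressed phosphoglycerate mutase, did not pass in the unblocked fit over all probe sets. It passed with the block, and without it when only the brighter probe sets were tested (limma adjusted p = 0.0464). It was at 9.46, 10.25, 10.37 and 9.47 on the sham left and 10.26, 10.67, 10.33 and 11.30 on the sham right arrays. In SNX rats Pgam1 was at 9.97, 9.13, 10.05, 9.35 and 9.07 on the left and 9.83, 9.77, 10.08, 10.07 and 10.92 on the right. The right limb was higher in 7 of 9 rats, the exceptions being sham rat 15 and SNX rat 12, and the groups overlapped. The highest 2 values were those of the right arrays of sham rat 17 (11.30) and SNX rat 49 (10.92). Right minus left was 0.75 ± 0.32 in sham rats, 0.62 ± 0.29 in SNX rats and 0.68 ± 0.22 combined (limma adjusted p = 0.0996, with the block 0.0463). With the block and 1 rat left out it passed without SNX rat 12 (limma adjusted p = 0.0414), sham rat 15 (0.0367) or SNX rat 20 (0.0405), and was lost without any other rat, at up to 0.171. Without the 2 arrays that stood apart the unblocked difference was 0.48 ± 0.19 (limma adjusted p = 0.250). Its slope on the macrophage mean was 0.365 within the groups, and with that covariate the difference was 0.22 ± 0.23 (limma adjusted p = 0.954). Pgam2 minus Pgam1 within an array was lower on the right in 3 of 4 sham and 4 of 5 SNX rats.

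Eno1, the widely expressed enolase, was at 9.16, 9.57, 9.38 and 9.04 on the sham left and 9.93, 9.49, 9.32 and 10.45 on the sham right arrays. On the SNX left arrays Eno1 was at 9.50, 9.02, 9.34, 9.27 and 9.21, and on the SNX right arrays at 9.46, 9.31, 9.57, 9.33 and 10.20. The same 2 right arrays were the highest, at 10.45 and 10.20, and the right limb was higher in 6 of 9 rats. The combined difference was 0.41 ± 0.15 (limma adjusted p = 0.168, with the block 0.0883) and 0.22 ± 0.10 without those arrays (adjusted p = 0.368). Its slope on the macrophage mean was 0.257. Aldoc, the aldolase best known from brain, was dim: it read 3.63, 4.28, 3.69 and 3.64 on the sham left, 3.43, 4.30, 3.80 and 3.64 on the sham right, 3.65, 4.82, 3.67, 3.67 and 4.26 on the SNX left and 3.67, 3.72, 3.69, 3.66 and 3.65 on the SNX right arrays. Single arrays lay above the rest, those of both limbs in sham rat 13 and the left limbs of SNX rats 18 and 49, and no group lay apart.

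Of the 6 members of lactate and glycerol phosphate metabolism none was called in any comparison, with or without the block. Over both kinds of rat this was 0 of 6, against 2.55% of all probe sets without the block and 9.05% with it. There 2 of the 6 were above 0 and 4 below, and their median difference was -0.20. Slc16a1 (MCT1), a transporter that moves lactate with a proton, was at 10.84, 11.65, 11.56 and 10.18 on the sham left and 12.04, 11.89, 11.75 and 10.94 on the sham right arrays. In SNX rats Slc16a1 was at 11.46, 10.73, 10.90, 11.38 and 11.06 on the left and 11.41, 11.38, 10.84, 11.46 and 11.50 on the right. The right limb was higher in 4 of 4 sham and 3 of 5 SNX rats, with a combined difference of 0.41 ± 0.21 (limma adjusted p = 0.298, with the block 0.127). Ldhb, the heart-type subunit of lactate dehydrogenase, varied most of all members between rats, from 10.77 to 14.43, with a combined difference of 0.08 ± 0.49. Its level followed the slow fibre mean, with a slope of 0.946 within the groups, and the residual standard deviation went from 1.06 to 0.241 with that mean in the fit. Slc16a1 had a slope of 0.352 on the same mean. Ldha, the muscle-type subunit, lay between 14.17 and 14.80 (-0.10 ± 0.09).

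Gpd1, the cytosolic glycerol 3-phosphate dehydrogenase, was at 13.70, 13.14, 13.15 and 13.94 on the sham left and 12.42, 13.04, 13.46 and 12.92 on the sham right arrays. On the SNX left arrays Gpd1 was at 13.07, 13.80, 13.86, 13.52 and 13.66, and on the SNX right arrays at 13.63, 13.48, 14.14, 13.01 and 12.44. The right limb was lower in 6 of 9 rats and the groups overlapped, with a combined difference of -0.38 ± 0.22 (limma adjusted p = 0.346). Its mitochondrial partner Gpd2 ranged from 9.18 to 11.27 (-0.31 ± 0.27). Fbp2, the muscle fructose 1,6-bisphosphatase that runs against phosphofructokinase, was at 10.09, 10.05, 9.22 and 10.05 on the sham left and 8.83, 10.38, 9.84 and 8.59 on the sham right arrays. In SNX rats Fbp2 was at 9.33, 10.05, 10.83, 10.24 and 10.68 on the left and 10.07, 9.77, 10.99, 10.13 and 9.46 on the right. The right limb was lower in 5 of 9 rats, and the combined difference was -0.29 ± 0.28 (limma adjusted p = 0.563).

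Many members varied between rats along with the slow fibre list. With the slow fibre mean in the fit the residual standard deviation fell below 0.8 of its value in 15 of the 27 members brighter than the median probe set, 55.6%, against 11.9% of the 15521 probe sets above the same median. Many of the members lay far above that median, so the members and those probe sets were not matched in brightness. The slope was below 0 for 18 of these 27 members and above 0 for 9; Ldhb, Slc16a1 and Gbe1 had slopes above 0.3, and Pfkfb4 (-0.503) and Gpd2 (-0.426) were at the other end. With the macrophage mean instead, 4 of 27 members (14.8%) fell below 0.8, against 18.7% of probe sets. Arrays, depth of signal and RNA are shared by all these genes, so the slopes are a description.

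**Figure D4:**
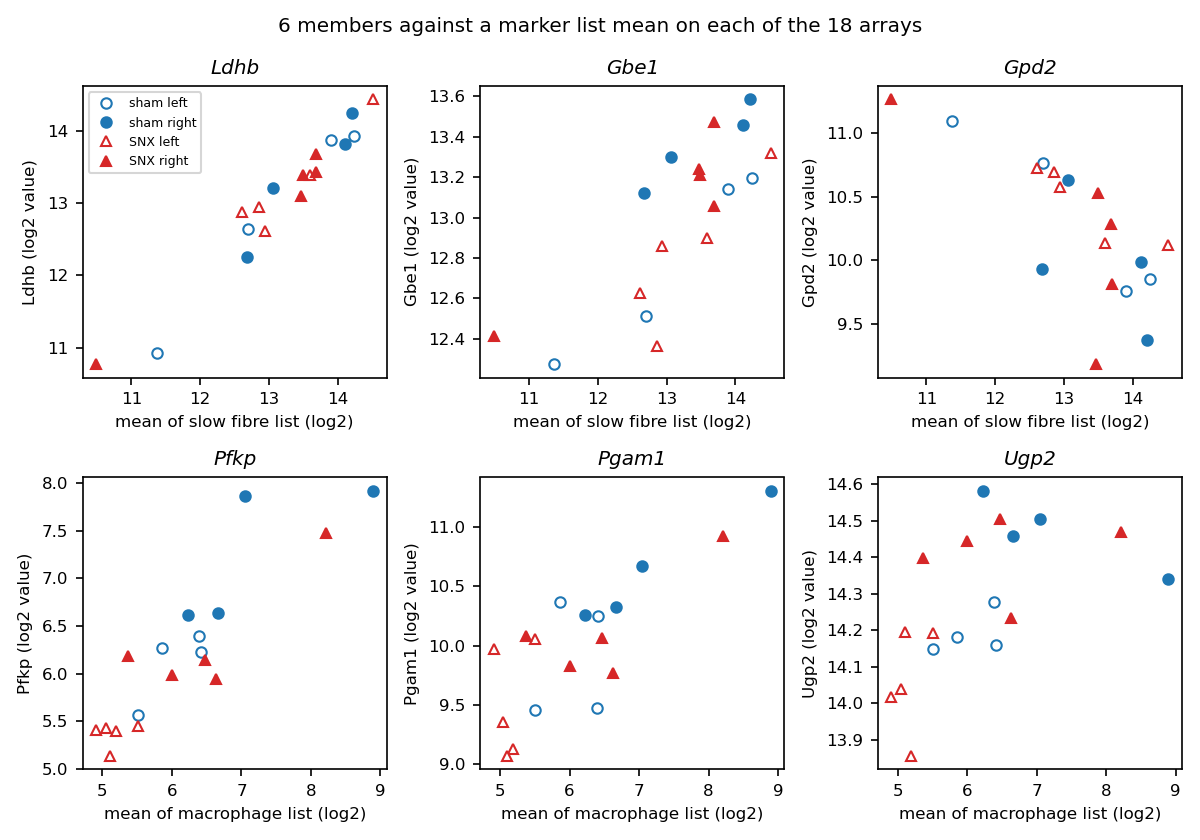
Levels (log2) of Ldhb, Gbe1 and Gpd2 against the mean of the slow fibre list, and of Pfkp, Pgam1 and Ugp2 against the mean of the macrophage list, on each of the 18 arrays; open symbols are left and filled symbols right limbs. Ldhb was lowest on the 2 arrays with the lowest slow fibre means, 10.49 and 11.37, and Pgam1 was highest on the 2 arrays with the highest macrophage means, 8.89 and 8.21.

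Kidney reduction itself was compared in each limb. No member passed in the left limb, where 0.00644% of all probe sets did with or without the block, and none in the right limb, where 0% did. At an unadjusted p under 0.05 there was 1 member in each limb, Pfkp, lower in SNX rats both times, against 6.25% of all probe sets in the left and 9.25% in the right limb; with the block it was again 1 in each limb, against 6.13% and 9.67%. In the left limb all 5 SNX arrays of Pfkp, 5.14 to 5.45, lay below all 4 sham arrays, 5.56 to 6.39. Pfkp was the 1 of 29 members whose groups did not overlap there, against 2.52% of all probe sets. SNX minus sham was -0.75 ± 0.33 (limma adjusted p = 0.775). In the right limb it was -0.91 ± 0.33 (limma adjusted p = 0.498), with SNX rat 49 at 7.48 among the sham values, and no member's groups were apart, against 8.25%. The macrophage mean differed in the same direction, at 4.91 to 5.51 in SNX and 5.50 to 6.41 in sham left limbs, and so did the adipocyte mean (8 of 9 measured), at 4.87 to 5.69 and 5.78 to 7.70, the Schwann cell mean (6 of 8), at 4.82 to 5.21 and 5.603 to 7.222, and the fibroblast mean (10 of 10), at 9.03 to 9.84 and 9.77 to 10.62. The left arrays did not overlap for the adipocyte and Schwann cell lists. The neutrophil, endothelial, erythroid and cardiac and smooth muscle lists also had lower group means in SNX left limbs, with overlapping arrays, while those of the slow and fast fibre lists were higher. The part of these lists in the SNX minus sham values of Pfkp was not tested. The 2 limb comparisons use different arrays of the same rats.

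For the other tested members no SNX minus sham difference of the probe set that stands for the gene reached an unadjusted p under 0.05. Other probe sets did in the right limb, each with a limma adjusted p of 0.498: 1 of Pfkm at 0.60 ± 0.21, where the brightest was at 0.23 ± 0.17, a dim one of Pgk1 at 0.24 ± 0.09, and a further Gapdh control at 0.17 ± 0.07. Over all 29 members, each by its brightest probe set, the median was 0.01 in the left and 0.06 in the right limb, with 18 of 29 members above 0 in each. Over all 31042 probe sets the medians were 0.01 and 0.03, with 20036 and 21628 above 0. Among the 15521 brighter probe sets 8056 and 8009 were above 0, and among the 27 brighter members 16 and 17. Centring each array on its median changed the counts of all 29 members to 14 above 0 in the left and 16 in the right limb. Fbp2 had the highest difference in the right limb, 0.67 ± 0.40 (limma adjusted p = 0.498), and Ldhb in the left, 0.41 ± 0.69 (adjusted p = 0.943). Ugp2 was at -0.13 ± 0.07 in the left and -0.06 ± 0.07 in the right limb.

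**Figure D5:**
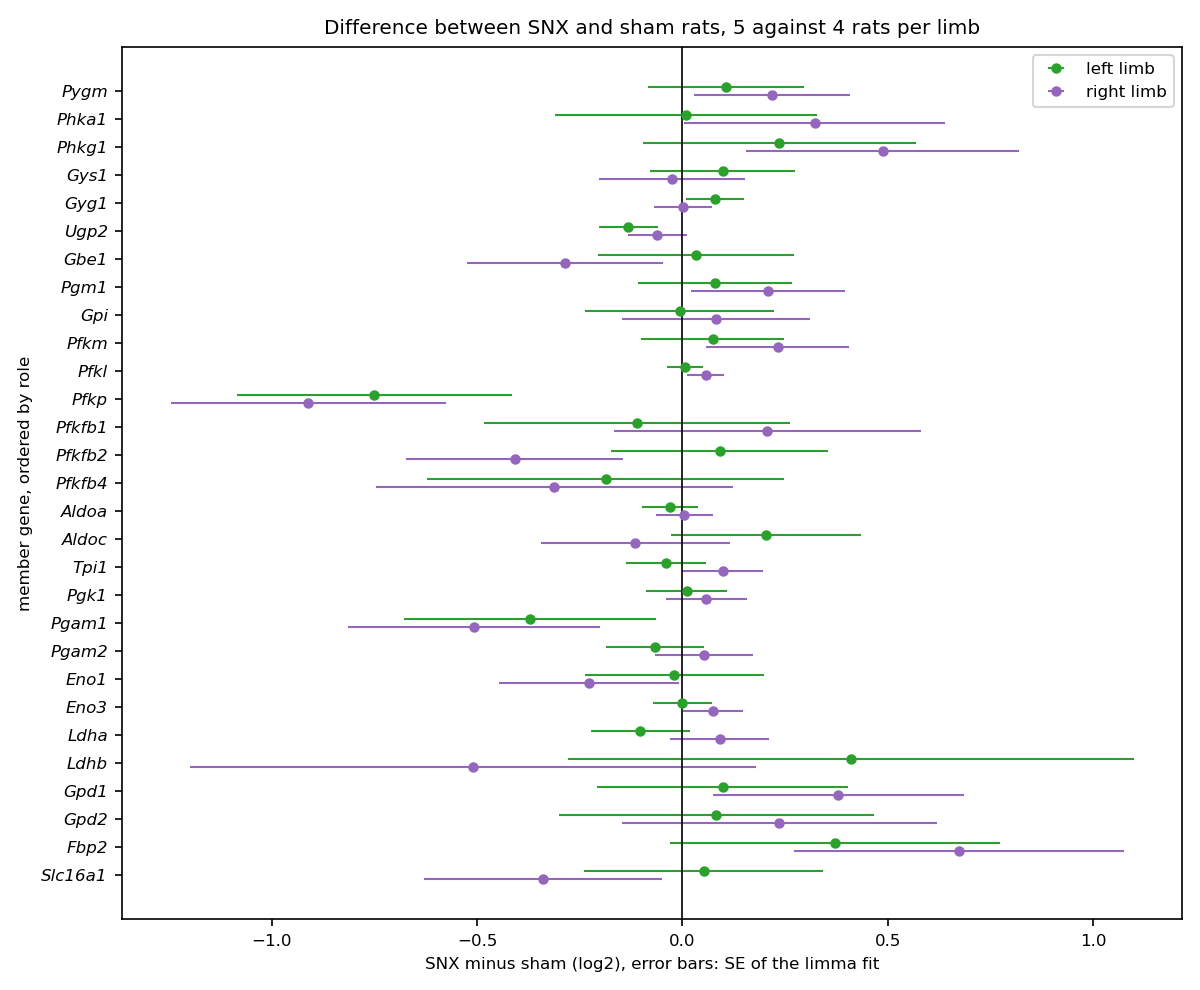
SNX minus sham difference (log2) of every tested member in the left and in the right limb; points are differences of group means and error bars the SE of limma's fit. Pfkp was the lowest in both limbs, at -0.75 and -0.91, and its adjusted p-values were 0.775 and 0.498.

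Whether ligation acted differently in SNX rats was tested as an interaction, the SNX change minus the sham change. No member passed in limma with or without the block, no member had an unadjusted p under 0.05 in either fit, and 0% of all probe sets passed, while 1.41% had an unadjusted p under 0.05 without the block and 3.07% with it. For Ugp2 the SNX change exceeded the sham change by 0.07 ± 0.10, with a 95% interval of -0.15 to 0.29. For Pfkp it was smaller by 0.16 (-0.16 ± 0.47, interval -1.17 to 0.85), and for Pgam1 -0.14 ± 0.43 (interval -1.06 to 0.79). The intervals for Pfkp and Pgam1 therefore include differences as large as the change itself.

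A list of 53 further genes of glucose uptake, glycogen and pyruvate metabolism, of which 44 were measured, gave 5 combined right minus left calls without the block and 8 with it, all higher on the right, against the 2.55% and 9.05% of all probe sets above. The 5 were Hk2, a hexokinase of muscle (2.62 ± 0.30, limma adjusted p = 0.0012, higher in 9 of 9 rats), Slc2a3, a glucose transporter (0.70 ± 0.15), Pygb, the brain glycogen phosphorylase (0.57 ± 0.13), Eno2, the neuronal enolase (1.20 ± 0.29), and Bsg, the chaperone of lactate transporters (0.28 ± 0.06); the block added Hk1, Slc2a1 and Tkt. Within sham rats the unblocked fit called none of the 44, against 0.148% of all probe sets, and the block called 4 (Hk2, Slc2a3, Eno2 and Bsg), against 1.8%. Within SNX rats Hk2 was called in both fits, against 0.0451% and 0.319%. With the macrophage mean as a covariate Hk2 stood at 2.19 with the adjusted p at 0.0964. With 1 rat left out in turn, the unblocked combined call of Hk2 passed in 9 of 9 fits. Slc2a3 passed in 3 of these, Pygb in 2, Bsg in 2 and Eno2 in 1, and with the block all 5 passed in 9 of 9. Over all alternatives the highest limma adjusted p was 0.793 for Slc2a3, 0.844 for Pygb, 0.937 for Eno2 and 0.237 for Bsg. The lowest differences were 0.35, 0.22, 0.45 and 0.22. None of the 44 passed in a comparison of SNX with sham.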

How the data were processed

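Soleus RNA of 18 limbs from 9 rats was measured on Affymetrix rat arrays, each from biotin-labelled cRNA made of 2 ug total RNA, per the labels' protocols. The authors deposited 1 table of log2 values; per the submitters' processing notes the tools were RMA, GCRMA and Partek, and their roles are not given in the sources used here. Such normalization sets the arrays to a common scale and can compress very bright and very dim probe sets. Of 31099 probe sets, 57 controls were left out and 31042 were tested; 20826 list 1 gene. Groups and rat numbers came from the sample titles.

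A limma 3.58.1 model in R 4.3.3 with 1 mean per group over all 18 arrays (14 residual degrees of freedom) gave 6 comparisons: right against left in sham, in SNX and in both kinds of rat, SNX against sham in each limb, and the interaction of limb and operation. P-values were adjusted by Benjamini-Hochberg over all probe sets, threshold 0.05. The number of arrays limits the precision. The limbs of a number come from the same rat, so the numbers pair the samples; deviations from the group means correlated above 0.1 in 7 of 9 rats, and the block fit used duplicateCorrelation (consensus correlation 0.297). The calculations were tested on simulated data. The members and lists were chosen with earlier results of these data known. Array values are given for members past the threshold in any comparison in either fit and for the 3 members of each role group with the widest range of group means. Alternatives covered the block, the samples in the fit, normalization, a filter on dim probe sets, the probe set rule, the variance model, array weights, single rats or arrays left out and list means as covariates. Promoter windows are those of RefSeq, build GRCr8.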

Additional observations from a re-analysis of the deposited data

Results flagged for a closer look

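In 14 of 120 groups of a member's values (30 members in 4 groups of 4 or 5 arrays), 1 array lay far from the others by Dixon's test; chance gives about 1 in 20 groups. On the left arrays of sham rats, Aldoc was at 4.28 in rat 13 against 3.63 to 3.69 in the others, Fbp2 at 9.22 in rat 15 against 10.05 to 10.09, Pfkfb1 at 10.25 in rat 13 against 10.62 to 10.70, Pfkl at 2.81 in rat 15 against 2.72 to 2.73, and Gapdh at 15.09 in rat 17 against 15.01 to 15.02. On the right arrays of sham rats Gys1 was at 10.80 in rat 17 against 11.70 to 11.83. On the left arrays of SNX rats Pfkfb2 was at 3.32 in rat 12 against 2.86 to 2.93, and Pfkp at 5.14 in rat 49 against 5.40 to 5.45.

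On the right arrays of SNX rats, rat 49 stood apart for Pfkp (7.48 against 5.94 to 6.18), Pgam1 (10.92 against 9.77 to 10.08) and Pfkl (2.996 against 2.72 to 2.78). Rat 20 was low there for Ldhb (10.77 against 13.09 to 13.67) and Slc16a1 (10.84 against 11.38 to 11.50), and rat 12 was high for Pfkfb2 (3.24 against 2.88 to 2.92). The array of rat 49 also had the highest macrophage mean of its group, 8.21, and that of rat 20 the lowest slow fibre mean, 10.49; their part in these values was not tested.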

How the results depend on the processing

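With the replicate block the counts of members called were 1 in sham rats and 1 in SNX rats, against 1.8% and 0.319% of all probe sets. The fit without it called 0 in each, against 0.148% and 0.0451%. Over both kinds of rat the counts were 3 with it and 2 without it, against 9.05% and 2.55%. The block changed no other count. Array weights called 1 in sham rats. Leaving out 1 rat at a time over both kinds of rat gave 1 to 2 called members without the block (1 without sham rat 11, 13 or 17 or SNX rat 12, 18 or 37, where Pfkp was lost) and 2 to 4 with it (4 without SNX rat 12 or sham rat 15, where Pfkfb1 was added to the 3, and without SNX rat 20, where Gbe1 was); with the block it gave 0 to 2 in sham rats and 0 to 1 in SNX rats. The macrophage mean as a covariate, added after the data were seen, called 0 of the 29 members over both kinds of rat. That mean was itself higher on the right in most rats, so such a fit takes up part of any limb difference that goes with it. Shares of all probe sets are given here for the fits with and without the block only. The other counts therefore show how calls moved with the fit, and not how members compare with other genes. No member was called in SNX against sham or in the difference of changes under any alternative run. The members' median ranged over the alternatives from -0.13 to -0.04 in sham rats, from -0.12 to 0.09 in SNX rats and from -0.10 to 0.03 combined, with the highest combined value under the macrophage covariate. Another quantile normalization put 13 members in place of 10 above 0 in SNX rats. No sign of a called value reversed. With 4 and 5 rats, interval widths limit what the comparison of SNX with sham can show.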

Other observations

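Of the tested members 10 had more than 1 probe set, and for all of these but Gpd2 and Pfkfb2 the others had the same sign for the combined right minus left difference (log2). The other Pygm probe sets gave -0.46 ± 0.22 and -0.40 ± 0.18 beside -0.21 ± 0.13 for the brightest, the other Phka1 probe set gave -0.47 ± 0.27, and the other Gpd1 probe set -0.56 ± 0.30; none passed the threshold in limma. Gpd2 disagreed, at 0.06 ± 0.12 for the second probe set against -0.31 ± 0.27 for the brightest. So did Pfkfb2, whose 3 other probe sets, all dim, gave -0.01 ± 0.02, -0.02 ± 0.02 and -0.03 ± 0.02 against 0.24 ± 0.19 for the brightest. The second Slc16a1 probe set, at a mean of 1.29, was near the lowest values of the table and gave 0.01 ± 0.02.

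Several further genes of the pathway that did not pass are given here as values, chosen after their values were seen. Combined right minus left was -0.49 ± 0.19 for Stbd1, a glycogen-binding protein, -0.51 ± 0.19 for Bpgm, which makes 2,3-bisphosphoglycerate, and 0.60 ± 0.24 for Ppp1r3b, a glycogen-targeting subunit of protein phosphatase, with limma adjusted p-values of 0.177, 0.149 and 0.190. Slc2a4, the insulin-responsive glucose transporter, was at 0.03 ± 0.13, and Pdk4, a kinase that switches off pyruvate dehydrogenase, at 0.12 ± 0.23.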
